A study of Mus musculus with 28 samples.

Results

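Glutathione S-transferases join the tripeptide glutathione to electrophiles, lipid peroxidation products and drugs, and so make them soluble and ready for export. The soluble enzymes fall into classes named by Greek letters, and a separate membrane-bound family, to which Mgst1 belongs, works in the endoplasmic reticulum and the outer mitochondrial membrane. In the mouse, several alpha, mu and pi class genes are textbook targets of NRF2, the transcription factor that KEAP1 holds at a low level in unstressed cells by marking it for degradation. NRF2 binds antioxidant response elements together with a small MAF protein. In the lung, these enzymes are part of the defence of airway cells against inhaled oxidants, and tumors that have lost KEAP1 often carry them at a high level.

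The 10 members examined were the alpha class genes Gsta1, Gsta2, Gsta3 and Gsta4, the mu class genes Gstm1 and Gstm2, the pi class gene Gstp1, the theta class gene Gstt1, the omega class gene Gsto1, and Mgst1. They were taken by symbol from a table of 43143 rows, in which each of the 10 had 1 row. The table mixes gene rows and transcript rows. Gsta1, Gsta3, Gsta4, Gstt1 and Mgst1 are listed under a gene identifier, and for the other 5 the symbol stands on 1 transcript row. A further 11 transcript rows of Gstm1, Gstm2, Gstp1 and Gsto1 carry no symbol and are described apart. The row of Gsta2 is a protein-coding transcript of 751 bases and that of Gsto1 a short protein-coding transcript of 384 bases. The row of Gstm1 is a processed transcript of 597 bases, and the rows of Gstm2 (727 bases) and Gstp1 (423 bases) are retained-intron transcripts, which can also be fed by unspliced RNA. Levels were therefore never compared between genes, and differences between groups were.

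RNA was sequenced from 28 libraries, 4 in each of 7 groups. The 3 groups of cultured cells were wild-type (WT) 3LL cells, KEAP1-KO cells and DKO cells. 3LL is the mouse Lewis lung carcinoma line. KEAP1-KO cells are a clone grown from a single colony after CRISPR-Cas9 cutting of Keap1, and DKO cells are a further clone in which Nrf2 (Nfe2l2) was cut as well, so that they share the loss of KEAP1 with the KEAP1-KO cells. The 4 groups of tumors came from the same lines, injected under the skin of both flanks of albino C57BL/6 male mice aged 6 weeks and taken after 10 days. Mice of Experiment A bore WT cells on the left and KEAP1-KO cells on the right, and those of Experiment B bore KEAP1-KO cells on the left and DKO cells on the right, so genotype and flank cannot be told apart within an experiment, while KEAP1-KO cells lay on opposite sides in the 2 experiments. Nothing in the labels says whether the 4 cell libraries of a genotype came from separate cultures, so the p-values may measure technical spread only. The labels' extraction protocol names liver, but of 8 hepatocyte marker genes 2 were listed and their summed level was at most 12.3 normalized counts in any library. Of 10 lung epithelial marker genes 5 were listed, and the defining surfactant gene Sftpc was not among them.

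Reads recovered from the listed rows came to 4222370 to 7524293 in a library, the median being 5619517. Values are log2(normalized count + 4), so a row with no reads stands at 2, and 1 read is worth between 0.81 and 1.16 normalized counts. The Keap1 gene row differed between KEAP1-KO and WT cells by -1.86 on the log2 scale (limma adjusted p = 2.20e-09), and the NRF2 target Nqo1 was higher by 3.44 (limma adjusted p = 1.36e-11). Between DKO and KEAP1-KO cells Nqo1 differed by -5.68 (limma adjusted p = 1.10e-13). The listed Nfe2l2 row is a processed transcript whose difference between DKO and KEAP1-KO cells was 0.22 (limma adjusted p = 0.650), so it gives no check of the DKO label.

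Close paralogs of the alpha and pi classes limit what a row can be credited to. In GENCODE vM21 (GRCm38), Gsta1 lies at chr9:78230656-78242684 on the plus strand, Gsta2 at chr9:78331018-78355788 on the minus strand and Gsta4 at chr9:78182774-78209349 on the plus strand. The gene Gm3776 lies between Gsta1 and Gsta2 at chr9:78257129-78269166. Gsta3 is on another chromosome, at chr1:21240589-21265661. The first 90 coding bases of the annotated transcripts are printed here to show how alike these genes are; capitals mark bases that differ from Gsta1.

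Gsta1: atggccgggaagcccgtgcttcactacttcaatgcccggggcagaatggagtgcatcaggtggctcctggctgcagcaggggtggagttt
Gm3776: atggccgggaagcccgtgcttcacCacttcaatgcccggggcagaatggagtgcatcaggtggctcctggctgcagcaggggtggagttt
Gsta2: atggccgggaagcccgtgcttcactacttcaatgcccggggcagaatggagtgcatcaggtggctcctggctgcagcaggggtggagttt
Gsta3: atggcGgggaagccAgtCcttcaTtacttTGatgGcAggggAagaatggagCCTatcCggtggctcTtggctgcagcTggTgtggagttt
Gsta4: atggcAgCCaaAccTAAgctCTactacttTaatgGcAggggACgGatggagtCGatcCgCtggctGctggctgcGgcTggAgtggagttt

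Over the whole coding sequence, Gsta2 was 97.6% and Gm3776 99.7% identical to Gsta1, whereas Gsta3 was 73.4% and Gsta4 65.5% identical. Of all words of 31 bases in the annotated Gsta1 transcripts, 7.14% occurred in no other gene, and 80.3% also occurred in Gm3776. For the Gsta2 row 29.8% of the words were found in no other gene. Counts of Gsta1 and Gsta2 are thus shared among near copies, and a value under either symbol may hold reads of the other or of Gm3776. For Gsta3 97.3%, for Gstt1 99.5% and for Gsta4, Gsto1 and Mgst1 100% of the words were their own.

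The same holds for the pi class. Gstp1 (chr19:4035407-4037985, minus strand) has a tandem copy, Gstp2 (chr19:4040285-4046023, minus strand), 98.1% identical in its coding sequence, and capitals in the second line mark bases of Gstp2 that differ from Gstp1.

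Gstp1: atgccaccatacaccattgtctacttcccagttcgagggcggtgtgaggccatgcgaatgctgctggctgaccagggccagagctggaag
Gstp2: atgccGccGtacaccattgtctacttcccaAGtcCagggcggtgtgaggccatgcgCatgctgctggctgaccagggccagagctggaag

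None of the 31-base words of the Gstp1 row (0%) was unique to Gstp1, since each was also found in a Gstp2 transcript. The mu class rows were better separated: 91.2% of the words of the Gstm1 row (gene at chr3:108012255-108017973) and 79.8% of those of the Gstm2 row (chr3:107981702-107986453) occurred in no other gene, and the coding sequences are 85.9% identical. Gstt1 lies at chr10:75783813-75798584, Gsto1 at chr19:47854970-47864790 and Mgst1 at chr6:138140316-138156755.

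Promoter windows (250 bases before to 50 after a start site; RefSeq, GRCm38.p6) were at hand for 9 of the 10 members, in 11 windows, with none for Gsta4. They were searched on both strands for TGACNNNGC, the core letters of an antioxidant response element, which 12.4% of 32851 mouse promoter windows hold. Windows of 2 members held it. The upstream bases of these windows are printed with the match in capitals, for Gsta3 at chr1:21240335-21240584 and for Mgst1, where the match is on the opposite strand, at chr6:138140277-138140526, both genes being on the plus strand.

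Gsta3: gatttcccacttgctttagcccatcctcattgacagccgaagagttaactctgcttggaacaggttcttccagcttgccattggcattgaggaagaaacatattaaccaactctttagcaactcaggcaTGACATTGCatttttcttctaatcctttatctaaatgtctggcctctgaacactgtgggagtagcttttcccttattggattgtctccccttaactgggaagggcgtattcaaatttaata
Mgst1: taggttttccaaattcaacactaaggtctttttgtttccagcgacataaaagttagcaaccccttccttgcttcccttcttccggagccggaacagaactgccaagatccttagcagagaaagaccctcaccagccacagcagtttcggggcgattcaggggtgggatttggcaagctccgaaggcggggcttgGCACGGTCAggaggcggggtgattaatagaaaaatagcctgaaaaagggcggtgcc

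The Gsta3 match read TGACATTGC, 121 to 113 bases before the start, and the Mgst1 match read TGACCGTGC, 56 to 48 bases before it. A second motif, TGACTCA, is held by 5.20% of the windows. The window of Gstp1 contained it, 74 to 68 bases before the start and on the opposite strand. The Gsta1, Gsta2, Gstm1, Gstm2, Gstt1 and Gsto1 windows contained neither set of letters, which says only that these letters are not in these windows.

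The first question was how the row of each gene differed between KEAP1-KO and WT, and the second how it differed between DKO and KEAP1-KO. These comparisons are called KEAP1 loss and NRF2 loss. Each edited genotype is a single clone, so genotype and clone cannot be told apart. No p-value here covers the spread between clones. In cultured cells 9 of the 10 members were higher in KEAP1-KO than in WT cells (limma, Benjamini-Hochberg adjusted p under 0.05 over 29744 rows), against 8.13% of all rows called higher. All 10 were lower in DKO than in KEAP1-KO cells, against 4.85% of all rows called lower. The same KEAP1-KO cell libraries enter both comparisons. In tumors 9 members passed the filter on low values. Of these, 7 were higher with KEAP1 loss in Experiment A, against 5.61% of 34215 rows, and 9 were lower in DKO than in KEAP1-KO tumors of Experiment B, against 4.64%. With the replicate number as a block the count in Experiment B was 8, without Gsta2. The median difference of the 10 members was 2.04 in cells and 1.97 in tumors for KEAP1-KO minus WT, and -3.55 and -2.02 for DKO minus KEAP1-KO. Over all rows tested, the corresponding medians were 0.02, -0.03, -0.03 and 0.00. Gsta1 and Gsta2 in either fit, and Gsta3 and Mgst1 in cells, passed the filter only through KEAP1-KO libraries. So did Gsta4 in tumors, where 2 WT and 0 DKO libraries reached 5 normalized counts, so those rows could hardly pass it without differing.

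**Figure D1:**
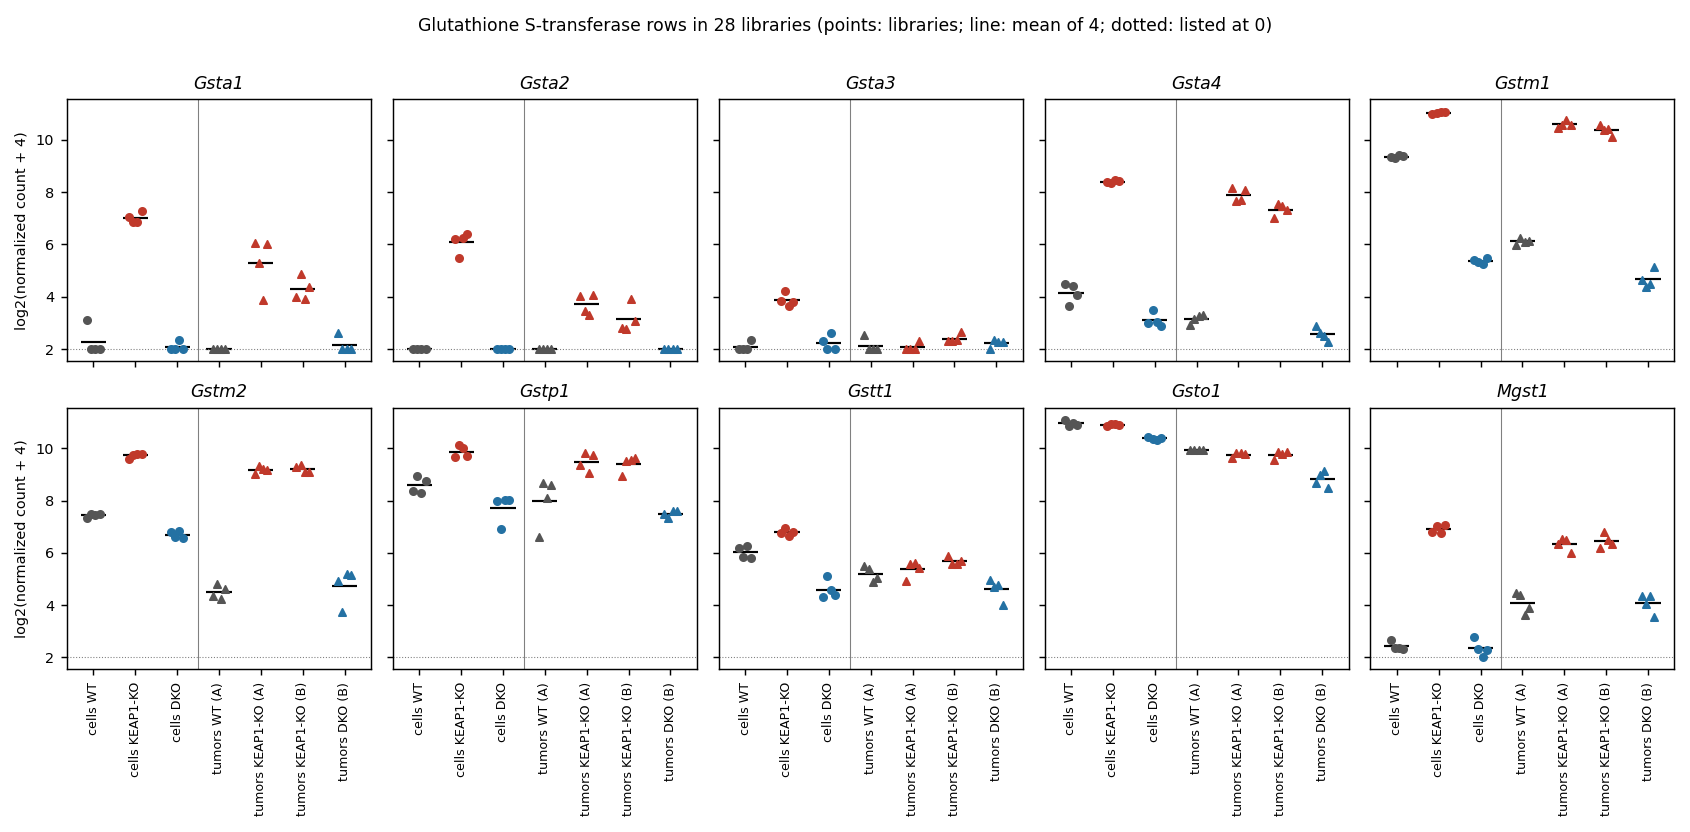
Values of the 10 members, as log2(normalized count + 4), in the 28 libraries; each point is a library, circles are cells, triangles are tumors, A and B are the experiments, black lines are means of 4 and the dotted line at 2 is a count of 0. Within cells and within tumors, KEAP1-KO groups (red) stood highest for the members other than Gsto1 and, in tumors, Gsta3, and Gstm1 and Gstm2 showed WT tumors far below WT cells.

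Of the alpha class, Gsta1 and Gsta2 encode enzymes that conjugate many substrates and reduce lipid hydroperoxides. Gsta1 stood at 127, 113, 111 and 150.4 normalized counts in the 4 KEAP1-KO cell libraries. It had 4 reads in 1 WT library and none in the other 3, and 1 read in all 4 DKO libraries together. The difference was 4.73 between KEAP1-KO and WT cells (standard error 0.27, limma adjusted p = 1.34e-07) and -4.92 between DKO and KEAP1-KO cells (0.27, limma adjusted p = 1.01e-07). In Experiment A the KEAP1-KO tumors held 63.4, 34.7, 10.6 and 60.3 normalized counts, and no read was seen in any WT tumor. With 3 reads over the WT group as the floor, it was at least 62.4-fold higher in KEAP1-KO tumors (log2 difference 3.31, standard error 0.40, limma adjusted p = 2.71e-05). KEAP1-KO tumors of Experiment B held 12, 25.1, 11.2 and 17 normalized counts, and the DKO tumors 2 reads, both in the same library. That difference was -2.14 (standard error 0.40, limma adjusted p = 0.0023). KEAP1-KO groups overlapped no WT or DKO group.

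Gsta2 had 0 reads in all 16 libraries of WT and DKO cells and tumors. In KEAP1-KO cells it stood at 69.7, 41.1, 72.6 and 79.7 normalized counts, at least 80.1-fold higher than in WT cells and at least 89.2-fold higher than in DKO cells, with 3 reads over the lower group as the floor. In KEAP1-KO tumors it was at 12.2, 6.94, 5.80 and 12.7 normalized counts in Experiment A and at 2.99, 2.79, 11.2 and 4.52 in Experiment B. These are 36 and 21 reads in all, and the tumor differences were 1.71 (standard error 0.28, limma adjusted p = 4.70e-04) and -1.15 (0.28, limma adjusted p = 0.0146). Blocking on the replicate number took the latter past the threshold (limma adjusted p = 0.0501). Since most words of the Gsta2 row are shared, its pattern is not independent of that of Gsta1.

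Gsta3, which in the mouse handles the epoxide of aflatoxin, was seen almost only in KEAP1-KO cells. They held 11, 17, 9 and 11 reads, against 1 read in all WT and 3 in all DKO cell libraries. The differences were 1.79 (standard error 0.24, limma adjusted p = 2.14e-04) and -1.64 (0.24, limma adjusted p = 6.81e-04). From 1 WT read, the ratio of KEAP1-KO to WT cells was 40.5, with an exact 95% interval for counting error of 6.92 to 1631. In tumors it had 0 to 2 reads in every library and did not pass the filter, so a change there was not detectable at this depth.

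Gsta4 encodes an enzyme with a preference for 4-hydroxynonenal, a product of lipid peroxidation, and it combined a wide range with a row of its own. Its normalized counts were 18.2, 8.63, 17.3 and 12.9 in WT cells, 329, 326, 346 and 341 in KEAP1-KO cells, and 3.91, 7.36, 4.19 and 3.42 in DKO cells. In Experiment A they were 3.59, 4.76, 5.48 and 5.94 in WT and 279, 201, 204 and 269 in KEAP1-KO tumors. Those of Experiment B were 125, 182, 172 and 157 in KEAP1-KO and 3.29, 2.06, 1.62 and 0.853 in DKO tumors. In each comparison the groups were far apart. The ratio of means was 23.5 in cells and 48.2 in tumors for KEAP1-KO against WT, and 71.1 in cells and 81.3 in tumors for KEAP1-KO against DKO. The last 3 rest on few reads, 22 in all WT tumors, 19 in all DKO cells and 8 in all DKO tumors. In tumors the row passed the filter only through KEAP1-KO libraries, so it could hardly be tested there without differing. The log2 differences were 4.25 (standard error 0.20, limma adjusted p = 1.85e-08) and 4.75 (0.17, limma adjusted p = 6.61e-11) for KEAP1-KO minus WT in cells and tumors. For DKO minus KEAP1-KO they were -5.30 (0.20, limma adjusted p = 2.17e-09) and -4.78 (0.17, limma adjusted p = 5.48e-11).

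The mu class conjugates epoxides and quinones. Gstm1 stood at 654, 624, 677 and 659.8 normalized counts in WT cells, and in KEAP1-KO cells it rose to 2041, 2110.1, 2139.6 and 2133. DKO cells held 38.1, 35.7, 34.6 and 40.1. WT cells were thus 3.22-fold below KEAP1-KO cells, and DKO cells 56.7-fold below them. In tumors the balance differed, for WT tumors held 58.4, 72.4, 64.9 and 66.2 normalized counts, against 1396, 1516, 1742 and 1531 in the KEAP1-KO tumors beside them. In Experiment B the KEAP1-KO tumors held 1505, 1335, 1344 and 1111, and DKO tumors 20.8, 16.5, 18.6 and 31.6. The KEAP1-KO groups overlapped none of the others. The differences for KEAP1-KO minus WT were 1.68 in cells (standard error 0.06, limma adjusted p = 1.06e-09) and 4.48 in tumors (0.14, limma adjusted p = 1.41e-11). For DKO minus KEAP1-KO they were -5.68 in cells (0.06, limma adjusted p = 1.01e-14) and -5.71 in tumors (0.14, limma adjusted p = 4.83e-13). A second row of the gene, a protein-coding transcript, moved the same way in tumors (1.29 and -1.39, limma adjusted p = 0.00155 and 0.00128) and did not pass the filter in cells.

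Gstm2 was at 157, 175, 172 and 174 normalized counts in WT cells, 777, 862, 869 and 868 in KEAP1-KO cells and 108, 92.5, 109 and 92.2 in DKO cells. WT tumors held 16.2, 23.8, 14.6 and 20.4, and KEAP1-KO tumors 521, 629, 595 and 574 in Experiment A and 624, 647, 536 and 546 in Experiment B. DKO tumors held 26.3, 9.27, 32.4 and 31.6, overlapping the WT tumors. The differences for KEAP1-KO minus WT were 2.29 in cells (standard error 0.08, limma adjusted p = 1.06e-09) and 4.70 in tumors (0.25, limma adjusted p = 5.46e-09). For DKO minus KEAP1-KO they were -3.02 (0.08, limma adjusted p = 6.38e-11) and -4.46 (0.25, limma adjusted p = 8.99e-09).

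Gstp1 conjugates electrophiles and can return oxidized thiols of proteins to use. Its row, shared with Gstp2, ranged from 308 to 489.9 normalized counts in WT cells, from 804 to 1108 in KEAP1-KO cells and from 116 to 257 in DKO cells, where 1 library (116) lay well below the other 3 (246 to 257). In tumors it ranged from 94.3 to 406 in WT, from 522 to 899.6 and from 492 to 783 in the KEAP1-KO groups of Experiments A and B, and from 156 to 193 in DKO. KEAP1-KO minus WT was 1.29 in cells (standard error 0.24, limma adjusted p = 0.00254) and 1.49 in tumors (0.34, limma adjusted p = 0.00699). DKO minus KEAP1-KO was -2.14 (0.24, limma adjusted p = 7.80e-05) and -1.91 (0.34, limma adjusted p = 0.00161). The folds were between 2.43 and 4.31. Of 5 further Gstp1 transcript rows, 4 passed the filter. Called in cells were 4 higher with KEAP1 loss and 3 lower with NRF2 loss, and in tumors 3 higher and 4 lower. The transcript row of Gstp2 differed by 3.57 between KEAP1-KO and WT tumors (limma adjusted p = 0.00604) and by -3.56 between DKO and KEAP1-KO tumors (limma adjusted p = 0.00858), and in cells its differences of 0.95 and -0.86 did not pass the test.

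Gstt1, of the theta class, acts on small halogenated molecules and hydroperoxides. It ranged from 51.5 to 73.7 normalized counts in WT, from 96.2 to 121 in KEAP1-KO and from 15.6 to 30.5 in DKO cells. KEAP1-KO cells were higher than WT cells by 0.77 (standard error 0.18, limma adjusted p = 0.0119), and DKO minus KEAP1-KO cells was -2.19 (0.18, limma adjusted p = 5.57e-06). In tumors of Experiment A the groups overlapped, with 25.6 to 41.3 in WT and 26.7 to 44.4 in KEAP1-KO tumors, and the difference of 0.18 did not pass (95% interval -0.28 to 0.64, limma adjusted p = 0.684). DKO tumors, at 11.9 to 27.4, were below KEAP1-KO tumors, at 43.6 to 54.9 (-1.07, standard error 0.22, limma adjusted p = 0.0047).

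Gsto1, of the omega class, reduces glutathione adducts and dehydroascorbate rather than forming conjugates, and it was the 1 member not higher in KEAP1-KO than in WT cells. In tumors it shared this with Gstt1, Gsta3 not having been tested. WT cells held 1861 to 2176 and KEAP1-KO cells 1862 to 1942 normalized counts, a difference of -0.05 (95% interval -0.16 to 0.05, limma adjusted p = 0.565). In Experiment A WT tumors lay within 983 to 989 and KEAP1-KO tumors at 784 to 905, with no overlap, and the difference of -0.19 did not pass the test (95% interval -0.43 to 0.05, limma adjusted p = 0.346). With NRF2 loss it was lower in cells, at 1289 to 1383, (-0.52, standard error 0.05, limma adjusted p = 1.35e-05) and in tumors, at 356 to 558 (-0.93, 0.11, limma adjusted p = 6.01e-05). Each of 4 further Gsto1 transcript rows had a mean log2 value of at most 4.17 in any of these groups, and none was called in these comparisons.

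Mgst1, the membrane-bound enzyme that conjugates and also reduces lipid hydroperoxides, had 1 or 2 reads per WT and 0 to 3 per DKO cell library. KEAP1-KO cells held 109, 127, 106 and 129.8 normalized counts. WT cells had 5 reads in all, 2 of them in replicate 1. DKO cells also had 5 reads in all, 3 of them in replicate 1, and no ratio is given for either. In tumors the other genotypes were not empty. WT tumors held 18, 17.1, 8.23 and 11 and DKO tumors 16.4, 12.4, 16.2 and 7.67 normalized counts, against 76.7, 89, 85 and 59.4 in KEAP1-KO tumors (Experiment A) and 69.8, 106, 85.2 and 78 in those of Experiment B. KEAP1-KO minus WT was 4.50 in cells (standard error 0.21, limma adjusted p = 2.30e-08) and 2.24 in tumors (0.23, limma adjusted p = 5.37e-06). DKO minus KEAP1-KO was -4.57 (0.21, limma adjusted p = 2.01e-08) and -2.39 (0.23, limma adjusted p = 5.36e-06).

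**Figure D2:**
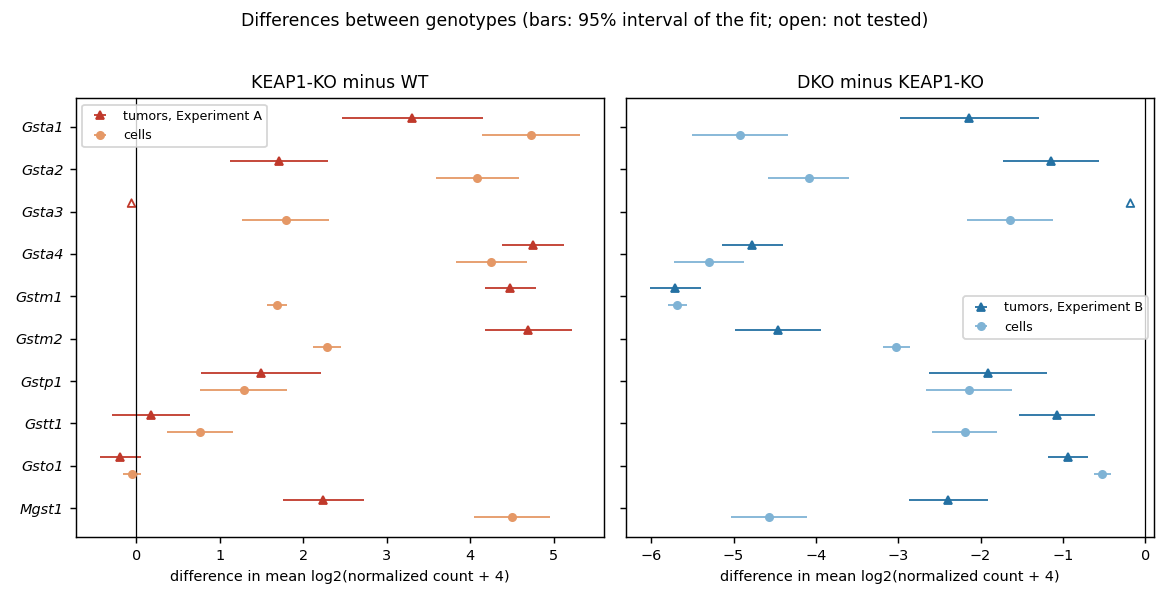
Differences in mean log2(normalized count + 4) of each member between adjacent genotypes, KEAP1-KO minus WT on the left and DKO minus KEAP1-KO on the right, in tumors (triangles) and cells (circles); bars are 95% intervals of the limma fit and open symbols were not tested. Gsta4, Gstm1 and Gstm2 rose by 4.48 to 4.75 in tumors, and Gsto1 lay near 0 on the left and below 0 on the right.

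The tumors hold host cells, and fewer cells of a type cannot be told apart from less RNA per cell in such bulk samples. Markers of leukocytes moved against the transferases. All 8 leukocyte markers, among them Ptprc (CD45), fell with KEAP1 loss in Experiment A and 7 of 8 rose with NRF2 loss in Experiment B. Their summed level was 3383 to 4208 normalized counts in WT, 770.1 to 917 in KEAP1-KO (A), 1294 to 1675 in KEAP1-KO (B) and 2249 to 3617 in DKO tumors. Macrophage marker sums were 7183 to 10376 in WT, 3373 to 4084 and 5611 to 6318 in the KEAP1-KO groups, and 7524 to 10172 in DKO tumors. All 8 macrophage markers fell in Experiment A and 4 of 8 rose in Experiment B. Fibroblast marker sums were 4814 to 12065, 1962 to 4778, 2813 to 3528 and 10754 to 14597 in the same order, with 2 of 7 tested falling in A and 3 of 7 rising in B. Of 8 endothelial markers none was called in Experiment A and 1 fell in Experiment B. Of the lung epithelial markers 4 were tested in tumors, of which 3 fell in Experiment A, and 2 rose and 1 fell in Experiment B. The sums over the 5 listed were 2653 to 3361 in WT, 2275 to 3438 and 2125 to 2652 in KEAP1-KO (A and B) and 1538 to 2179 in DKO tumors, and most of them came from the keratin gene Krt8. Mean normalized counts of Krt8 were 2842 in WT, 2804 and 2235 in KEAP1-KO and 1681 in DKO tumors, and those of Krt18 were 170.5, 84.1, 59.5 and 26.1. Means in WT, KEAP1-KO and DKO cells were 4770, 3386 and 2636 for Krt8 and 122, 32.3 and 9.87 for Krt18. Napsa had means of 35 normalized counts in WT, 4.27 and 6.18 in KEAP1-KO (A and B) and 34.3 in DKO tumors, and at most 0.263 in any group of cells. The part of these shifts in the tumor values was not tested. The 7 members that rose with KEAP1 loss in tumors were also called higher in cultured cells. The 9 that fell with NRF2 loss were also called lower there. Of these, Gsta1, Gsta2 and Mgst1 passed the filter in cells only through KEAP1-KO libraries. No leukocyte marker reached a mean of 5 normalized counts in any group of cells. The macrophage marker Cd68 stood at 19.2, 110 and 43.7 in WT, KEAP1-KO and DKO cells. Fibroblast marker sums in cells ranged from 371 to 719.

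The KEAP1-KO tumors of the 2 experiments are the same line in opposite flanks of different mice. None of the members was called between them by limma (0 of 9 tested, against 0.164% of all rows). At so low a share, 0 of 9 says little about the members. An unadjusted limma p under 0.05 was seen for 2, and no share over all rows is given for that limit. In Experiment A KEAP1-KO tumors lay on the right beside WT tumors, and 7 members were called higher in them, against 5.61% of rows. In Experiment B they lay on the left beside DKO tumors, and 9 members were called higher in them, against 4.64%. The part of flank was not tested. Gsta4 was at 201 to 279 in Experiment A and 125 to 182 in Experiment B, without overlap (difference -0.57, limma adjusted p = 0.365), and Gsta1 differed by -1.01 (limma adjusted p = 0.545) with overlap. Between the same groups 3 of 8 leukocyte and 5 of 8 macrophage markers were called higher in Experiment B. None of the fibroblast, endothelial or lung epithelial markers was called. The part of these shifts in the member values was not tested.

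DKO against WT asks where these rows stand in a line without NRF2, relative to a line with KEAP1 intact. In cells 6 members were lower in DKO than in WT cells and none higher, against 9.20% of all rows called lower. The count was 5 with the replicate block and 3 with an added log2 difference of at least 1. The difference of Gstm1 was -4.0 (standard error 0.06, limma adjusted p = 7.05e-13), that of Gstt1 -1.43 (0.18, limma adjusted p = 1.24e-04) and that of Gsta4 -1.05 (0.20, limma adjusted p = 0.00214). Gstp1 differed by -0.86, Gstm2 by -0.73 and Gsto1 by -0.57, with adjusted p of 0.0269, 2.05e-05 and 3.63e-06 by limma. The remaining 4, Gsta1, Gsta2, Gsta3 and Mgst1, had at most 5 reads in all 4 libraries of either group, so a fall below WT could not be seen at this depth. In tumors the groups belong to different experiments, so genotype, mice and flank cannot be told apart. DKO tumors of Experiment B minus WT tumors of Experiment A gave -1.45 for Gstm1 (limma adjusted p = 7.96e-06), -1.13 for Gsto1 (9.71e-06) and -0.60 for Gsta4 (0.0388). The Gsta4 value lies near the floor, with 8 reads in all DKO tumors and 22 in all WT tumors. These 3 calls are of 9 members tested, against 5.99% of all rows called lower. Without WT tumor replicate 2, 3 or 4 or without DKO tumor replicate 3 or 4, 2 were called. Gstm2 differed by 0.26 in tumors (95% interval -0.26 to 0.78).

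**Figure D3:**
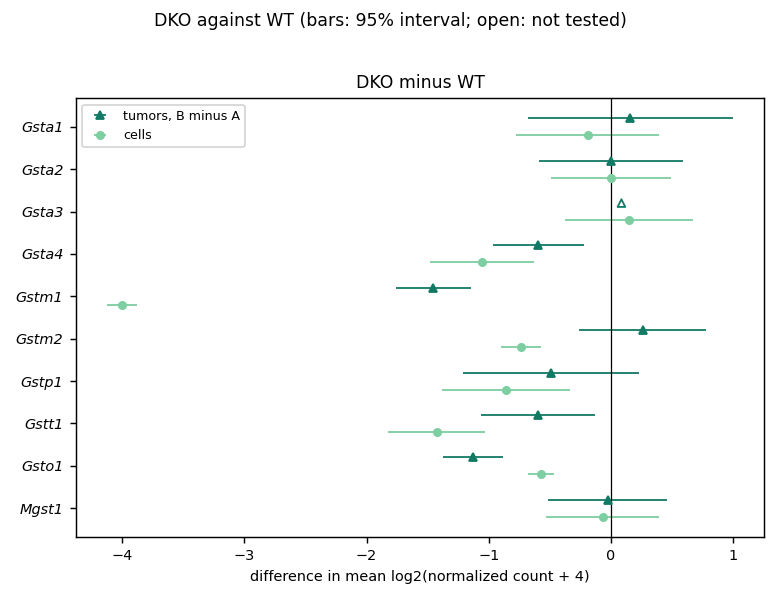
Differences in mean log2(normalized count + 4) of each member between DKO and WT, in cells (circles) and in tumors of Experiments B and A (triangles); bars are 95% intervals of the limma fit and the open symbol was not tested. Gstm1 stood at -4.0 in cells and -1.45 in tumors, and the members near the floor sat close to 0.

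Tumors against the cells they came from were compared in a fit of all 28 libraries and 37246 rows, in which the median row was higher in tumors by 0.16 to 0.23. In WT, 6 members were called, against 38.8% of all rows in either direction, which is a high background. Tumors minus cells was -3.25 for Gstm1 (standard error 0.12, limma adjusted p = 2.25e-17) and -2.95 for Gstm2 (0.20, limma adjusted p = 4.44e-12). Gsta4 and Gsto1 both differed by -1.0 and Gstt1 by -0.81, and Mgst1 was higher by 1.67 (0.21, limma adjusted p = 3.42e-07). In the KEAP1-KO line 9 members were lower in tumors of Experiment A than in cells and 8 in those of Experiment B, against 15.8% and 14.9% of rows called lower. Both counts include Gsta3, which passed the filter only through KEAP1-KO cells and so had to be lower in tumors. The differences were -2.38 and -2.94 for Gsta2, -1.70 and -2.71 for Gsta1, and -0.45 and -0.68 for Gstm1. The same 4 cell libraries serve both comparisons. Without KEAP1-KO cell replicate 4 the count in Experiment A was 6, and with a pseudocount of 0.4 it was 5. In DKO 5 of 10 were called, close to the share of 43.5% of all rows, with differences of 1.71 for Mgst1 and -1.96 for Gstm2. Mgst1 was thus higher in tumors than in cells of both genotypes in which the cells had almost none. Leukocyte, macrophage, fibroblast and endothelial marker sums were near 0 or far lower in culture. Medians of the lung epithelial sum were higher in culture, at 4903 in WT cells and 3129 in WT tumors, and at 2635 and 1666 in DKO. The part of host cells in the Mgst1 values was not tested.

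**Figure D4:**
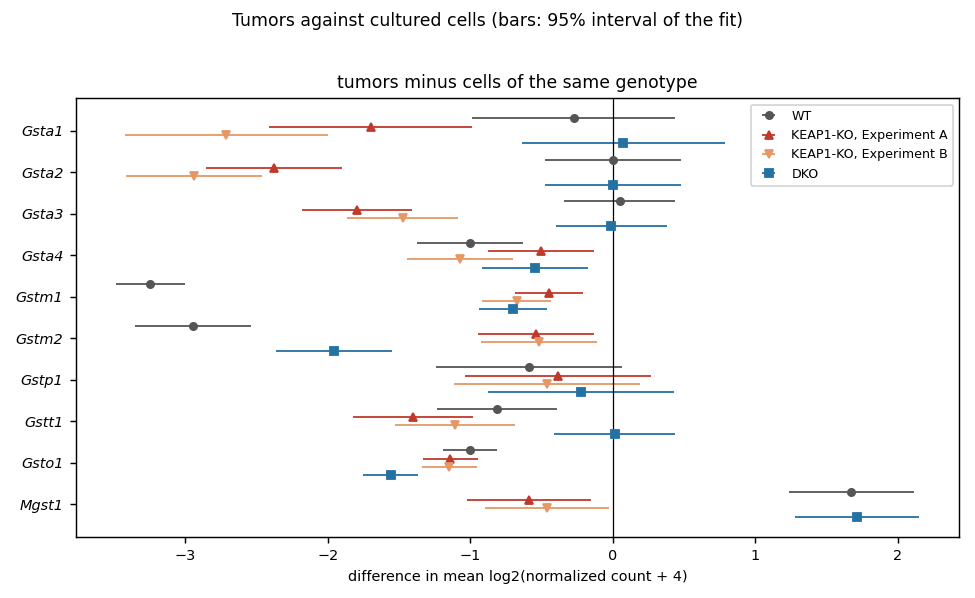
Differences in mean log2(normalized count + 4) of each member between tumors and cultured cells of the same genotype; bars are 95% intervals of the limma fit. Gstm1 and Gstm2 fell most in WT, Gsta1, Gsta2 and Gsta3 fell in KEAP1-KO and lay at the floor elsewhere, and Mgst1 rose in WT and DKO.

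Whether the response to KEAP1 loss differed between tumors and cells was tested as an interaction. It passed for 5 members, against 5.38% of all rows, and for 3 where a mean of at least 25 normalized counts was required. The rise was larger in tumors for Gstm1 by 2.80 (standard error 0.16, limma adjusted p = 9.03e-11) and Gstm2 by 2.41 (0.28, limma adjusted p = 2.08e-06), whose WT levels were lower in tumors. For Mgst1 (-2.26) and Gsta2 (-2.38) it was smaller in tumors. The fifth, Gsta3 (-1.84), passed the filter only through KEAP1-KO cells, which fixes its sign, and no rise in tumors was detectable for it. Gsta4 (0.50, limma adjusted p = 0.338) and Gstp1 (0.20, limma adjusted p = 0.887) did not pass, with 95% intervals of -0.03 to 1.03 and -0.72 to 1.13. The response to NRF2 loss differed for 6 members, against 3.67% of all rows, and for 3 with a pseudocount of 0.4. The fall was smaller in tumors for Gsta1 by 2.79, Gsta2 by 2.94, Mgst1 by 2.18 and Gstt1 by 1.12, and larger for Gstm2 (-1.44, limma adjusted p = 0.00249). The value of Gsta3 (1.46) is set by the filter in the same way. For Gstm1 the difference was -0.02, with a 95% interval of -0.36 to 0.32. Gsta1, Gsta2 and Gsta3 are at or near the floor of 2 outside the KEAP1-KO groups, so their interactions rest on the lower KEAP1-KO level in tumors.

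Of 24 other transferase and related membrane-protein genes, 15 were listed. In tumors of Experiment A, 13 were tested, with 3 higher and 4 lower on KEAP1 loss, a median of -0.39, against 13.1% of all rows called in either direction. In Experiment B 2 were higher and 3 lower on NRF2 loss, a median of -0.17, against 8.86% of all rows. Mgst3, a microsomal relative of Mgst1 that acts on leukotrienes, differed by -1.53 in tumors and -0.93 in cells with KEAP1 loss, and by 1.81 and 0.69 with NRF2 loss. Mgst2 went the way of Mgst1, with 1.13 and -1.26 in tumors and 0.65 and -1.36 in cells. In cells 10 were tested, with 3 higher and 2 lower in KEAP1-KO, and 1 higher and 2 lower in DKO against KEAP1-KO, with 15.5% and 8.83% of all rows called in those comparisons. Alox5ap, a leukocyte protein of leukotriene synthesis, differed by -1.03 between KEAP1-KO and WT tumors and did not pass the filter in cells.

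Of 13 genes of glutathione supply, all tested, 8 rose and 1 fell with KEAP1 loss in tumors (median 0.66), and 8 higher and 2 lower in cells (median 0.58). In DKO against KEAP1-KO, 7 were lower and none higher in tumors, and 8 were lower and 2 higher in cells. Slc7a11, the cystine importer, was higher by 2.95 in tumors and 1.64 in cells with KEAP1 loss, and with NRF2 loss the differences were -4.05 and -2.06. Gclm, the modifier subunit of the enzyme that starts glutathione synthesis, was higher by 2.21 in KEAP1-KO cells, and DKO minus KEAP1-KO was -3.66 in tumors and -3.48 in cells. Among genes that handle the conjugates, 2 of 13 tested rose and 2 fell with KEAP1 loss in tumors, and 4 of 8 were higher in KEAP1-KO cells. With NRF2 loss 1 of 13 rose and 1 fell in tumors, and 1 of 8 fell and none rose in cells. Of all rows, 13.1% and 8.86% were called for KEAP1 and NRF2 loss in tumors, and 15.5% and 8.83% in cells, and the NRF2 counts of this last list are close to those shares. Abcc4, an exporter, was higher by 2.55 in tumors and 1.29 in cells, and DKO minus KEAP1-KO was -2.23 and -1.30. All of these calls are by limma at the same threshold.

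Over the 28 libraries, the rows outside the family most like Gsta4 were Cat (catalase, Pearson r = 0.99) and Srxn1 (sulfiredoxin, 0.99), followed by Gm20658 (0.98). For Gstm1 they were Rgs10 (0.98), Btc (0.97) and Gbe1 (0.96), and for Gstm2 Pcx (0.98), Taldo1 (0.96) and Calr3 (0.95). These are descriptions over libraries that share lines and genotypes.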

How the data were processed

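Total RNA of cells and tumors was depleted of ribosomal RNA and made into strand-specific libraries, and the authors quantified reads with Salmon against GENCODE mouse transcripts on Galaxy and used iDEP. What the authors deposited were log2 values of a normalized count plus 4, a form worked out from the numbers themselves, since undoing it gave whole reads for 100% of 467760 low values checked (tolerance 0.02 read). The methods and the planned design spoke of TPM, so the test was applied to the log2 values. Which filter made the table is not given in the sources used here.

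A row was kept where 4 or more libraries of a fit reached 5 normalized counts. Testing was by limma 3.58.1 (R 4.3.3; lmFit, eBayes with a trend), with all tumor groups, all cell groups or all 28 libraries in a fit, Benjamini-Hochberg adjustment over all rows and a threshold of 0.05. Scripts were tested on simulated data. Folds are ratios of mean normalized counts. A group at 0 was set to a floor of 3 reads over the group; intervals and floors cover counting error only. Groups came from the sample titles. Named genes were the members, checks of the labels, up to 4 called genes of each list and the 3 rows most like each of 3 members. Members, lists and tests were chosen with earlier results of these data known. Alternatives were another pseudocount, other filters, scalings and thresholds, fewer groups, no trend, a replicate block and each library left out (rows tested kept as in the full fit). Gene models and shared words came from GENCODE vM21 (GRCm38), a release other than the one the paper names. Python 3.11.15 was used. Other assays were not analysed here.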

Additional observations from a re-analysis of the deposited data

Results flagged for a closer look

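Of 70 sets of 4 libraries (10 members in 7 groups), 11 had a library whose gap to the rest, over the range of the group, exceeded the critical value for 4 values. Chance flags about 1 in 20 sets of continuous values, a rate that does not hold where the other 3 libraries had no read, since a single read then always passes, as in 6 of the 11. In 8 of them the level was that of a few reads. Gsta1 stood at 3.10 in WT cell replicate 1, 2.34 in DKO cell replicate 3 and 2.63 in DKO tumor replicate 1, with the other libraries at 2. Gsta3 stood at 2.34 in WT cell replicate 4, 2.54 in WT tumor replicate 1 and 2.31 in KEAP1-KO tumor replicate 4 of Experiment A, and at 2.65 in replicate 4 of Experiment B. Mgst1 stood at 2.65 in WT cell replicate 1. In the other 3 the level was well covered. Gstm2 was at 7.33 in WT cell replicate 1 (others 7.46 to 7.48) and at 9.61 in KEAP1-KO cell replicate 1 (others 9.76 to 9.77). Gstp1 was at 6.90 in DKO cell replicate 2, a library with 110 reads on a row shared with Gstp2, against 7.97 to 8.03 in the others.

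The effect of KEAP1 loss differed between tumors of Experiment A and cells, tumors minus cells, for Gstm1 (2.80), Gstm2 (2.41), Gsta2 (-2.38), Mgst1 (-2.26) and Gsta3 (-1.84). The effect of NRF2 loss differed between tumors of Experiment B and cells for Gsta2 (2.94), Gsta1 (2.79), Mgst1 (2.18), Gsta3 (1.46), Gstm2 (-1.44) and Gstt1 (1.12). Each was tested as an interaction in limma. Gsta3 passed the filter only through KEAP1-KO cells, so the sign of its values is set by the filter.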

How the results depend on the processing

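In the 4 comparisons of adjacent genotypes, no member changed direction under any alternative that kept its row. Of 295 values from alternatives other than leaving out a library, 1 crossed the threshold. That was Gsta2 in DKO against KEAP1-KO tumors with the replicate block (-1.15, limma adjusted p = 0.0501). The 295 leave out rows that an alternative dropped and the added log2 difference of at least 1. Gstt1 with KEAP1 loss in cells and Gsto1 with NRF2 loss in cells and tumors lay under that difference. Same-numbered libraries did not deviate together (correlations of -0.029 to 0.027), which shows no shared deviation. Whether same-numbered tumors grew in the same mouse is not given in the labels, so they were treated as sharing only a number. With the replicate block the members called were 7 and 8 in tumors of Experiments A and B, 9, 10 and 5 in the cell comparisons and 5 in each interaction; comparisons across experiments, or of tumors with cells, could not be fitted with it. With a library left out in turn, counts stayed at 7, 9, 9 and 10 in the 4 comparisons, and ranged from 5 to 6 for DKO against WT cells, 2 to 4 for DKO against WT tumors, 5 to 6 for the KEAP1 interaction, 5 to 7 for the NRF2 interaction, 6 to 9 and 7 to 8 for KEAP1-KO tumors of Experiments A and B against cells, 4 to 5 for DKO and 6 for WT tumors against cells.

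Other counts moved as follows, and the cause was not tested. With a pseudocount of 0.4, KEAP1-KO tumors of Experiment A against cells had 5 members called (9 in the report) and the NRF2 interaction 3 (6). With a mean of at least 25 normalized counts, the KEAP1 interaction had 3 (5). With an added log2 difference of at least 1, DKO against WT cells had 3 (6), KEAP1-KO tumors of Experiment A against cells 5 (9) and DKO tumors against cells 3 (5). In comparisons of tumors with cells, median centring moved the median of all rows to between -0.07 and -0.19. Rows near 2 cannot show a fall, and changes of a few reads understate folds.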
